A study of Caenorhabditis elegans with 11 samples.

Results

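Whole-animal RNA of old ahr-1 mutants was compared with that of old wild-type worms of Caenorhabditis elegans, both fed K12 bacteria. The comparison takes 4 of the 11 RNA-seq libraries, chosen by their labels: replicates 1 and 3 of ahr-1 and replicates 1 and 3 of N2, the wild-type strain. The ahr-1 worms carried ia3, a loss-of-function allele, and no other allele is named. All 4 libraries came from adults labelled 12 days old (late), kept at 16 °C and raised from the embryo on Escherichia coli K12, which makes indole, with about 150 pooled worms per library. The other 7 libraries were N2 only: late worms on a tnaA deletion strain that makes no indole (replicates 2 and 3), and early worms on K12 (replicates 1 to 3) and on tnaA (replicates 2 and 3). Early worms are 3 days old per the sample labels and 2-day adults in the design text. Mutants were sequenced late and on K12 only, so nothing here shows how young mutants looked or whether indole matters to the difference. One mutant strain was used; of its outcrossing the labels say nothing.

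AHR-1 is the worm counterpart of the vertebrate aryl hydrocarbon receptor, a transcription factor with a basic helix-loop-helix and a PAS domain that binds DNA together with its partner AHA-1, the counterpart of ARNT. In vertebrates the receptor is known for sensing dioxins and tryptophan products, indoles among them, and for switching on cytochrome P450 genes. In worms it is best known from neurons, where it shapes the fate of several cell types, among them the oxygen-sensing URX, AQR and PQR neurons, and keeps soluble guanylate cyclase genes on.

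Gene counts per library, in units of 1e6, ran from 8.31 to 15.3, with 15.3 and 14.5 for N2 and 10.4 and 11.9 for ahr-1. Replicates varied by more than counting error (chi-square over degrees of freedom 3.82 for N2 and 5.42 for ahr-1). Reads outside genes and ribosomal RNA reads moved with the comparison: the first made up 8.56% and 8.27% of N2 and 13.8% and 11.6% of ahr-1 libraries, the second 0.0148% and 0.00964% against 0.110% and 0.0472% of gene counts. Their part in the results below was not tested. The first principal component (83.63% of the variance) separated ages. The second (6.615%) held ahr-1 at -37.61 and -35.95 and late N2 on K12 at 21.72 and 19.11, with early tnaA replicate 2 at -19.32 and early K12 replicate 3 at -14.23, the early libraries with the most sperm reads.

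In the following, CPM is reads per 1e6 gene counts after TMM scaling, fold changes are log2 values of ahr-1 minus N2 with their standard error, and a gene is called when the Benjamini-Hochberg adjusted p of edgeR's quasi-likelihood test is under 0.05. Strand use in counting is not stated in the labels. The genes elo-5, acs-1, acs-22, pmp-4, spp-1, cyp-37B1, ttr-51, unc-52, crt-1, cya-1, ssq-4, aha-1, gcy-34, gcy-35, nlp-24, ctl-2 and msra-1 each share an exon stretch with a tested gene on the other strand. If strand was ignored, reads on that stretch cannot be assigned to either gene. Ambiguous reads, which were left out, made up 0.267% to 0.296% of reads in the 4 libraries. Of 42048 genes 15133 were tested. Of these, 1855 were called higher in the mutant (12.3%) and 1840 lower (12.2%). Other scalings gave a different balance, with 1616 higher and 2422 lower under RLE size factors and 1105 and 1778 with DESeq2, so that the share of higher calls went from 50.2% to 40.0% and 38.3%. Leaving out 1 library left fewer calls, 670 higher and 740 lower without N2 replicate 1, 1097 and 1209 without N2 replicate 3, 1016 and 963 without ahr-1 replicate 1, and 1317 and 1494 without ahr-1 replicate 3. Called changes of at least 2-fold were more often rises, 443 genes (2.93%) against 164 (1.08%). The 2 libraries of each group did not overlap, with ahr-1 above, for 4857 genes (32.1%), and with ahr-1 below for as many. The authors' deposited table for this comparison lists 2071 genes, 1140 higher and 931 lower in ahr-1. Of these, 1986 were called here, all in the same direction, which is 95.9% of the authors' genes and 53.7% of the calls.

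**Figure D1:**
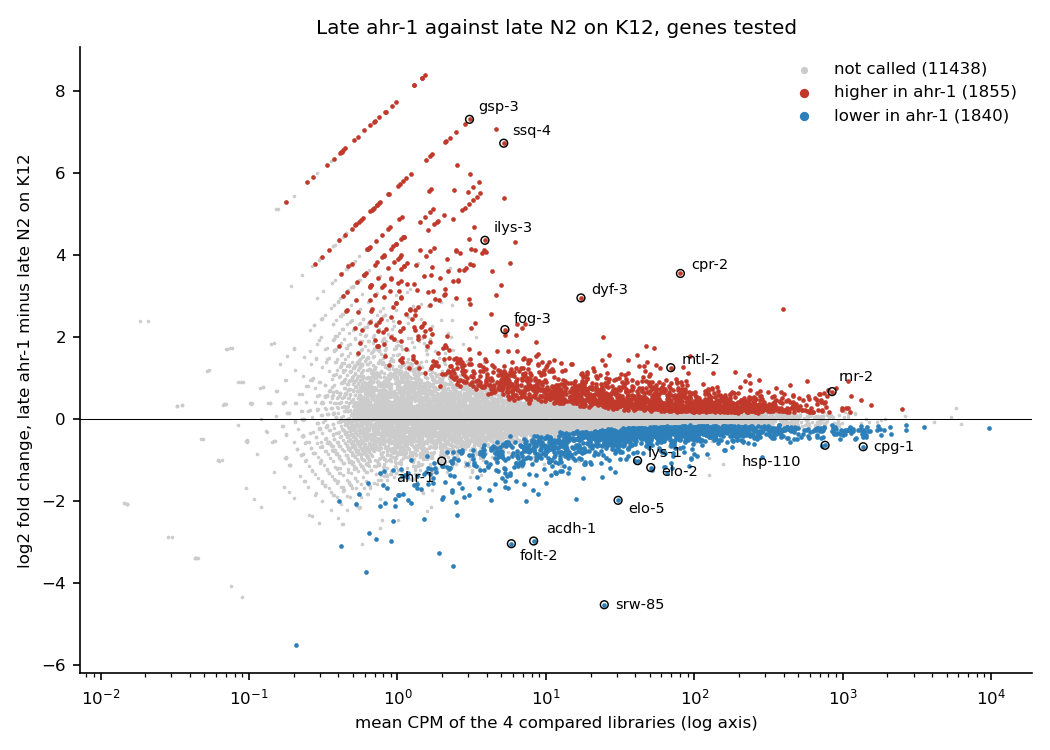
Log2 fold change of late ahr-1 minus late N2 on K12 (vertical) against the mean CPM of the 4 libraries (horizontal, log axis) for the 15133 genes tested; red and blue points were called, circles mark genes named in the text. Below a few CPM the largest changes are rises, many from 0 or few N2 reads (the slanted rows), where the fitted fold is not reliable; srw-85 stands alone among the falls of well-measured genes.

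The targeted gene came first. ahr-1 had 56 and 35 reads in N2 replicates 1 and 3 and 19 and 14 in the mutant, or 3.20 and 2.12 CPM against 1.59 and 1.03. The mutant libraries were the lower ones, with no overlap, but the change did not pass the test (-1.03 ± 0.47, adjusted p = 0.130). The labels do not say which part of the gene ia3 alters, so this level is a weak check of the labels. Among the 10 tested genes of AHR-1 and its partners, 1 was called: swan-1, a gene for a WD40 repeat protein, rose from 74.2 and 80.2 to 118 and 96.1 CPM (0.47 ± 0.09, adjusted p = 0.00259). daf-21, the chaperone gene of this list, was also called lower with DESeq2, and ahr-1 itself with the 6 late libraries alone. aha-1, the partner gene, stood at 35.9 and 37.5 CPM in N2 and 34.3 and 34.4 in ahr-1 (-0.10 ± 0.08).

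The region around ahr-1 did not hold a high share of calls. Of the 50 tested genes nearest to it by order in the WBcel235 annotation (25 on each side), 7 rose and 7 fell, and of the nearest 200, 24 rose and 27 fell (25.5% called, against 24.4% of all genes tested). Only 1 of the 50 had changed by at least 2-fold.

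Genes of the oxygen-sensing neurons were measured at few reads. Of 13 tested, 3 fell and 1 rose, with a median of -0.46 against 0.0 for all genes. gcy-37, a soluble guanylate cyclase gene of these neurons, had 14.0 and 13.1 CPM in N2 and 7.44 and 6.65 in ahr-1, a fall of 0.95 ± 0.20 (adjusted p = 0.00461). Late tnaA worms were at 16.3 and 12.2 CPM, so both mutant libraries were the lowest of the late ones, while early worms had at most 0.571 CPM. egl-46, a zinc-finger gene of neuronal differentiation, went from 31.5 and 27.98 to 18.6 and 15.9 CPM (-0.79 ± 0.16), and the neuropeptide gene flp-8 from 4.29 and 5.27 to 3.18 and 2.22 CPM (-0.83 ± 0.24). The rise was flp-10 (0.52 ± 0.13). Of the other soluble guanylate cyclase genes, gcy-36 had 4.35 and 5.09 against 3.09 and 1.77 CPM (adjusted p = 0.0672), and gcy-32 (-1.18 ± 0.68), gcy-34 (0.05 ± 0.42) and gcy-35 (0.11 ± 0.39) were not called, with at most 1.76 CPM in any of the 4 libraries. The falls numbered 1 without N2 replicate 1, where the calls of gcy-37 and egl-46 were lost, and 5 when the late libraries alone were fitted.

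The sharpest changes of single well-measured genes concerned a chemoreceptor, a cilium gene and a protease. srw-85, a predicted seven-transmembrane chemoreceptor gene, was at 44.1 and 50.7 CPM in N2 and 2.26 and 1.85 in ahr-1 (-4.53 ± 0.16, adjusted p = 6.54e-09). It was at 67.4 and 58.1 CPM in late tnaA worms and at 0.233 to 1.09 CPM in early worms, so the mutants were the only late libraries at a low level. dyf-3, a gene for a ciliary transport protein of sensory neurons, went the other way, from 4.41 and 3.45 CPM to 30.5 in both mutant libraries (2.95 ± 0.16, adjusted p = 5.24e-07). No N2 library of either age or diet exceeded 6.39 CPM. Other cilium genes, looked up after these values were seen, did not share that size: osm-1 rose by 0.66 ± 0.09, whereas dyf-1 (0.10 ± 0.24), osm-5 (-0.05 ± 0.29), che-13 (-0.41 ± 0.22), bbs-1 (0.13 ± 0.30) and the cilium regulator gene daf-19 (0.01 ± 0.08) were not called. cpr-2, a cathepsin B-like cysteine protease gene, was at 12.7 CPM in both N2 libraries and 105 and 192 in the mutant (3.55 ± 0.24, adjusted p = 4.18e-06), against 14.6 and 11.4 in late tnaA worms and at most 0.321 in early ones. Among all 120 chemoreceptor genes tested, 3 rose (sri-40, str-163 and sre-43) and 4 fell (srw-85, srh-237, srr-4 and srw-47), or 2.50% and 3.33%. The rises numbered 0 without N2 replicate 1, 1 without either ahr-1 library, 1 with DESeq2 and 7 with the 4 compared libraries alone, and the falls 2 among genes of at least 5 mean CPM.

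Hermaphrodites make a limited store of sperm before they switch to oocytes, and old hermaphrodites have usually used it up. Major sperm proteins (MSPs) are the cytoskeletal and signalling proteins of worm sperm, made from many nearly identical genes whose reads cannot be assigned with certainty to single members. Summed over the 31 MSP genes, late N2 on K12 had 1.60 and 1.82 CPM and late ahr-1 78.1 and 84.8 CPM. Late tnaA worms had 12.5 and 3.30 CPM, early K12 worms 85.9, 25.6 and 262.9, and early tnaA worms 304.3 and 68.0. Both mutant libraries thus lay above every late N2 library and within the range of the early ones. Of 28 MSP genes tested, 24 were called higher and none lower, with a median of 5.60, or 5.08 with the 7 members at 0 reads in one group set at their bound. In whole animals, more cells of a type and more RNA per cell cannot be told apart.

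Single sperm genes showed the same order of levels. ssq-4, a gene of the sperm-specific ssq family, had 1 and 2 reads in N2 and 121 and 142 in ahr-1, a ratio with an exact 95% counting interval of 39.6 to 570. gsp-3, a sperm protein phosphatase gene, had 1 and 0 reads against 51 and 107, with an interval of 37.3 to 8371. For genes with no N2 read the fold is a lower bound against 3 counts over the group: msp-142 was at least 34.7-fold higher, msp-53 at least 33.8-fold and cyc-2.2, a cytochrome c gene, at least 20.9-fold. alg-4, an Argonaute gene of spermatogenesis, went from 0.401 and 0.424 to 7.44 and 6.58 CPM (4.06 ± 1.07, adjusted p = 0.0149), and spe-11, which codes for a sperm protein delivered to the egg, from 0.286 and 0.363 to 3.59 and 2.14 CPM (3.11 ± 0.94). Of the 50 tested sperm genes other than MSPs, 17 rose and spe-39 fell, with a median of 1.29.

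Not every sperm gene followed. spe-9, a sperm surface protein gene, had 1.09 and 1.57 CPM in N2 and 0.752 and 0.887 in ahr-1, and fer-1, a gene for membrane fusion in sperm, 10.4 and 11.1 against 11.2 and 12.0. Both were lower in early worms, the sperm-rich libraries included, at 0.0834 to 0.543 CPM for spe-9 and 0.490 to 3.89 for fer-1. Neither gene thus followed the MSP level between early and late N2 worms. gsp-4, the close copy of gsp-3, had 0.629 and 0.545 against 3.26 and 4.95 CPM but was not called (adjusted p = 0.0725). The counts were lower when any 1 of the 4 libraries was left out: MSP rises numbered 1 without N2 replicate 1, 4 without N2 replicate 3, 12 without ahr-1 replicate 1 and 18 without ahr-1 replicate 3, and the rises of other sperm genes 1, 4, 11 and 12 in the same order. The calls of ssq-4 and alg-4 were lost without either N2 library and that of gsp-3 without N2 replicate 1. With genes under 5 mean CPM left out, no MSP gene remained in the test, and 5 other sperm genes rose. Fits without the early libraries called more: 26 MSP genes and 20 other sperm genes rose with the 4 compared libraries alone. The 6 late libraries alone gave the same numbers. In the main fit the spread is shared with the early N2 libraries, which differed widely in MSP reads.

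Markers of males, the other source of sperm in a worm culture, were measured beside the sperm genes. Of 9 tested genes of male neurons, seminal fluid and the vas deferens, swm-1 rose (0.49 ± 0.10) and none fell. That is 11.1% higher, near the 12.3% of all genes, and the median of the list was -0.51. The list summed to 29.3 and 26.9 CPM in N2 and 32.6 and 30.6 in ahr-1. The male neuron genes lov-1 (0.801 and 1.09 CPM in N2, 0.752 and 0.369 in ahr-1) and pkd-2 (1.49 and 1.21 against 0.752 and 0.443) and the seminal fluid protease gene try-5 (4.06 and 3.94 against 2.26 and 3.33) were lower in both mutant libraries than in either N2 library, though none was called, and cwp-1 was at or near 0 in all 4. plg-1 was not among the genes tested. Both mutant libraries lay below both N2 libraries for 32.1% of all genes tested, so that order is common. Whether the cultures held males was not tested.

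The genes that set germ cells to the sperm fate were looked up after the sperm values had been seen. fog-3, which is needed for germ cells to become sperm, was at 2.00 and 1.82 CPM in N2 and 6.85 and 10.5 in ahr-1 (2.18 ± 0.31, adjusted p = 5.00e-04). All 7 other libraries had 0.621 to 2.01 CPM, so the mutants were the only ones above that level, early libraries with many sperm reads included. fog-1, its companion in the same decision, rose from 29.1 and 26.9 to 43.4 and 53.6 CPM (0.79 ± 0.11), against 24.4 to 30.1 in the 7 others. her-1, the secreted signal for male fate, went from 2.58 and 2.54 to 4.60 and 6.43 CPM (1.11 ± 0.31), and tra-3, a protease gene of the sex pathway, rose by 0.48 ± 0.08. fem-1, fem-3 (0.02 ± 0.09), tra-1 (0.09 ± 0.07) and tra-2 (-0.02 ± 0.06) were not called, and fem-2 fell by 0.22 ± 0.07.

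Transcripts of oocytes moved down as sperm transcripts moved up. Of 26 tested genes of oogenesis and the eggshell, 21 fell and 4 rose, with a median of -0.39. cpg-1, an eggshell chondroitin proteoglycan gene, had 1751 and 1627 CPM in N2 and 952 and 1159 in ahr-1 (-0.68 ± 0.08, adjusted p = 2.35e-04), while late tnaA worms had 1224 and 1117 and early worms 2808 to 3071. The other late N2 group was therefore also below N2 on K12. daz-1, an RNA-binding protein gene of oogenesis, fell by 0.55 ± 0.07 and rme-2, the yolk receptor gene, by 0.49 ± 0.09. The 4 rises were cav-1, a caveolin gene (690 and 802 against 1552 and 1303 CPM, 0.94 ± 0.16), perm-4, rnp-5 and mbk-2 (0.19 to 0.28). Without N2 replicate 1 the falls numbered 12 and the rises 1. The rises numbered 1 without N2 replicate 3 and 2 without ahr-1 replicate 3.

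P granule and meiosis genes were lower by less. In P granules, the RNA-protein bodies of germ cells, 17 of 30 genes fell and none rose (median -0.25), among them car-1 with 939 and 847 CPM against 525 and 609 (-0.66 ± 0.08) and cgh-1 (-0.49 ± 0.08). Of 32 meiosis genes 19 fell and none rose (median -0.26), among them zim-3 for chromosome pairing (-0.62 ± 0.07) and syp-2 of the synaptonemal complex (-0.54 ± 0.07). Summed P granule genes had 9584 and 8873 CPM in late N2 on K12, 7167 and 8148 in ahr-1 and 7346 and 6967 in late tnaA worms. Meiosis genes had 2035 and 1886, 1592 and 1721, and 1616 and 1525 in the same order. The other late N2 group was thus also below N2 on K12 in both lists. Without N2 replicate 1 the falls numbered 5 in each list, and without ahr-1 replicate 1 they numbered 8 and 5. Small RNA and Argonaute genes, a list not limited to the germ line, split. In it prg-2 (-0.75 ± 0.09), mut-14 (-0.63 ± 0.08), wago-4 and hrde-1 fell. The rises were nrde-3 (0.49 ± 0.05), sago-1 (0.57 ± 0.08), alg-2 (0.45 ± 0.06), nrde-2, alg-3 and alg-4, of which nrde-3 and sago-1 are known from somatic cells. Those 6 rises numbered 3 without either N2 library.

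DNA replication and cell cycle genes went against the other germline lists. Of 38 tested, 17 rose and 5 fell, with a median of 0.12. rnr-2, which codes for the small subunit of ribonucleotide reductase, had 641 and 670 CPM in N2 and 1086 and 994 in ahr-1 (0.67 ± 0.06, adjusted p = 3.44e-05). The 7 other libraries had 640 to 753 CPM, so the mutants were above all N2 libraries of either age. The replication licensing gene cdt-1 (81.8 and 80.1 against 119 and 125 CPM, 0.59 ± 0.06) showed the same order, with 78.7 to 88.5 CPM elsewhere. All 6 genes of the MCM helicase rose, by 0.19 to 0.32, as did the cyclin A gene cya-1 (0.40 ± 0.07). The falls were psf-2, cyb-2.1, cdc-25.1, cyb-2.2 and rfc-1. The rises numbered 5 without N2 replicate 1, 8 without N2 replicate 3, 8 without ahr-1 replicate 3 and 11 with no filter on low counts. Histone genes, whose copies share reads, had 8 rises and 2 falls (his-68 and his-67) among 31 tested. The rises numbered 14 with the 4 libraries fitted alone 4 without N2 replicate 1 or ahr-1 replicate 1 and 5 without N2 replicate 3.

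**Figure D2:**
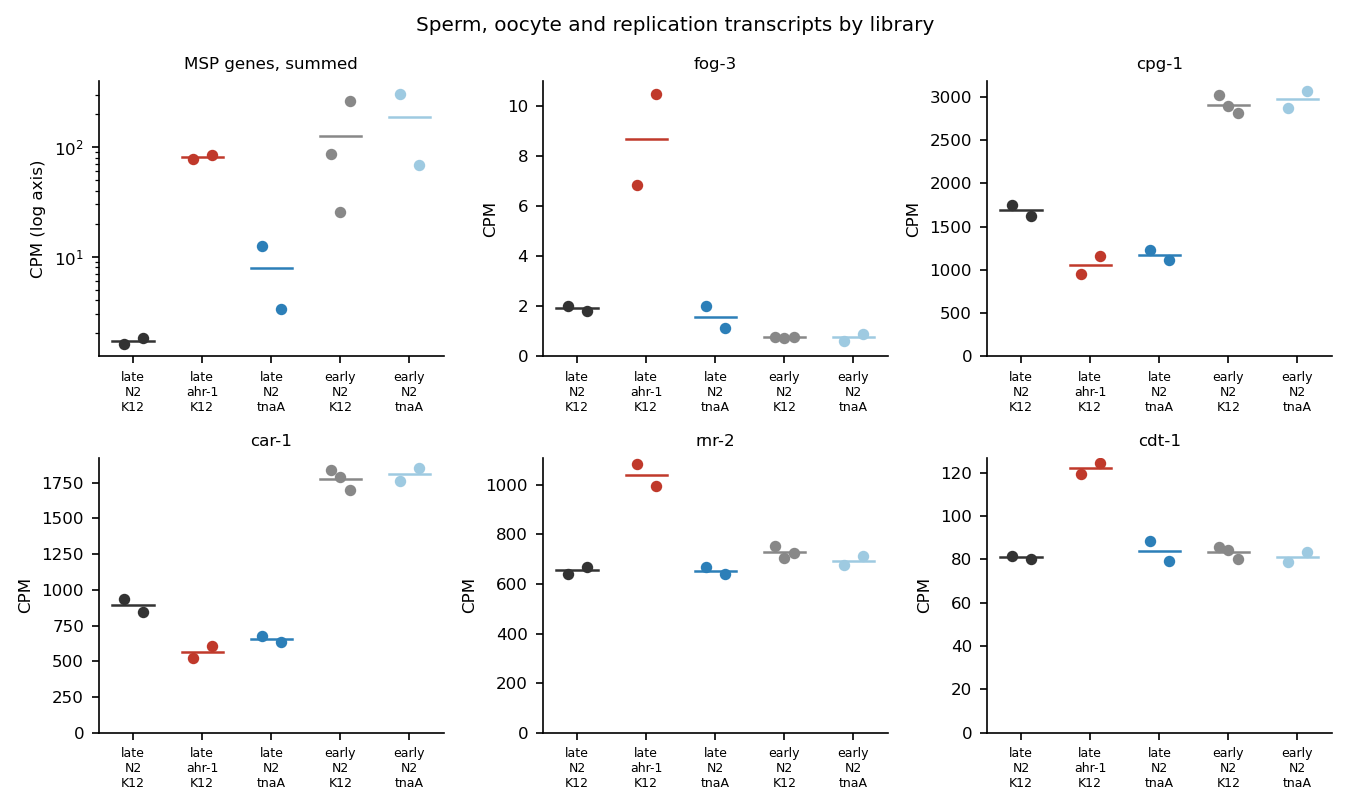
CPM in each of the 11 libraries (points) with group means (lines) for the summed MSP genes (log axis) and for fog-3, cpg-1, car-1, rnr-2 and cdt-1 (linear axes from 0). Late ahr-1 is near the early libraries for MSP genes, above every N2 library for fog-3, rnr-2 and cdt-1, and with late N2 on tnaA below late N2 on K12 for cpg-1 and car-1.

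Fatty acid synthesis and desaturation genes had 6 falls and 3 rises of 24, and the elongase genes elo-5, elo-6 and elo-2 were among the falls. elo-5, the elongase that makes branched-chain fatty acids from leucine, was at 54.6 and 43.4 CPM in N2 and 9.53 and 15.0 in ahr-1 (-1.98 ± 0.21, adjusted p = 8.65e-05). Late tnaA worms had 62.9 and 45.0 CPM and early worms 172 to 213, so the mutants were the lowest libraries of all. elo-6, which works beside it, had 53.4 and 30.5 against 13.4 and 20.5 CPM (-1.30 ± 0.26), and acs-1, the acyl-CoA synthetase of the same branched-chain route, 73.2 and 73.5 against 41.1 and 45.4 CPM (-0.76 ± 0.09). bcat-1, the branched-chain amino acid transaminase gene looked up after these values, fell by 0.55 ± 0.08. elo-2, the palmitate elongase, had 73.9 and 67.4 against 30.8 and 31.3 CPM (-1.19 ± 0.08, adjusted p = 4.18e-06). In that list, fat-6, pod-2 and fasn-1 were the other falls and dgat-2, fat-3 and fat-4 the rises. The falls numbered 10 under RLE size factors, and the rises 0 without N2 replicate 1 and 1 without ahr-1 replicate 1.

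Genes of fatty acid use were mixed. Of 53 genes of fatty acid activation and beta-oxidation 15 rose and 12 fell, with a median of 0.22. acs-22, a fatty acid transport protein gene, went from 29.0 and 30.2 to 58.7 and 62.6 CPM (1.03 ± 0.08, adjusted p = 1.41e-05), and cpt-1, the carnitine palmitoyltransferase that brings fatty acids to mitochondria, from 448 and 502 to 702 and 695 CPM (0.56 ± 0.06). pmp-4, a peroxisomal importer of long fatty acids, had 12.4 and 13.3 against 33.9 and 35.9 CPM (1.44 ± 0.14), with at most 18.5 in the other libraries. The lysosomal lipase genes lipl-7 (18.9 and 22.3 against 44.0 and 38.4 CPM, 0.998 ± 0.10) and lipl-2 (2.58 and 3.57 against 9.78 and 9.46 CPM, 1.65 ± 0.26) rose, while lipl-6 fell (-1.09 ± 0.31), a call lost whichever of the 4 libraries was left out. On the other side ech-7, an enoyl-CoA hydratase gene, had 25.7 and 26.5 against 8.36 and 10.8 CPM (-1.44 ± 0.12), and hacd-1 107 and 69.9 against 33.6 and 44.4 (-1.18 ± 0.19). The rises numbered 7 without N2 replicate 1 and 9 without ahr-1 replicate 3. They included 3 genes with at most 4 reads in an N2 library (acdh-8, acs-10 and acs-18), each also at 2.34 to 5.12 CPM in the early libraries with the most sperm reads.

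Of 17 genes of propionate breakdown, vitamin B12 and methyl metabolism, 4 fell and 2 rose. folt-2, a folate transporter gene, was at 5.72 and 15.3 CPM in N2 and 0.501 and 1.92 in ahr-1 (-3.04 ± 0.53, adjusted p = 0.00151), with 0.472 and 0.927 in late tnaA worms and 339 to 359 in early K12 worms. acdh-1, the acyl-CoA dehydrogenase that opens the propionate shunt, behaved alike, with 4.75 and 24.7 against 1.09 and 2.51 CPM (-2.98 ± 0.73), 1.12 and 1.24 in late tnaA worms and 682 to 703 in early K12 worms. Both N2 libraries on K12 differed widely from each other in these genes, and the acdh-1 call was lost without ahr-1 replicate 1, without which the falls numbered 2. sams-1, the S-adenosylmethionine synthetase gene, fell from 84.1 and 77.9 to 49.6 and 42.4 CPM (-0.82 ± 0.13), mmaa-1 by 0.29 ± 0.08, and pcca-1 and mthf-1 rose by 0.21 and 0.18. Of 8 tryptophan and kynurenine genes, nkat-3 fell (-0.45 ± 0.12) and none rose. That is 12.5% lower, near the 12.2% of all genes, and the call of nkat-3 was lost in 2 alternatives.

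No gene of metal handling fell. Of 16 tested genes of metallothioneins, ferritin and metal transport, 6 rose and none fell, with a median of 0.22. mtl-2, a metallothionein gene of the gut, was at 40.7 and 41.4 CPM in N2 and 100 and 95.3 in ahr-1 (1.25 ± 0.08, adjusted p = 4.13e-06), with 80.1 and 66.9 in late tnaA worms and 37.2 to 42.4 in early ones. ftn-1, the ferritin gene, had 5.89 and 6.42 against 16.1 and 17.1 CPM (1.43 ± 0.20), and late tnaA worms had 19.8 and 13.5. Late N2 worms on K12 were thus the lowest late group for both genes. The divalent metal transporter genes smf-3 (2.29 and 2.48 against 5.52 and 5.54 CPM, 1.21 ± 0.22) and smf-1 (0.60 ± 0.10), the zinc transporter gene cdf-2 (1.18 ± 0.26) and mtl-1 (0.96 ± 0.18) were the other rises. The rises numbered 5 to 7 without each library in turn, and 1 fall was called under RLE size factors.

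**Figure D3:**
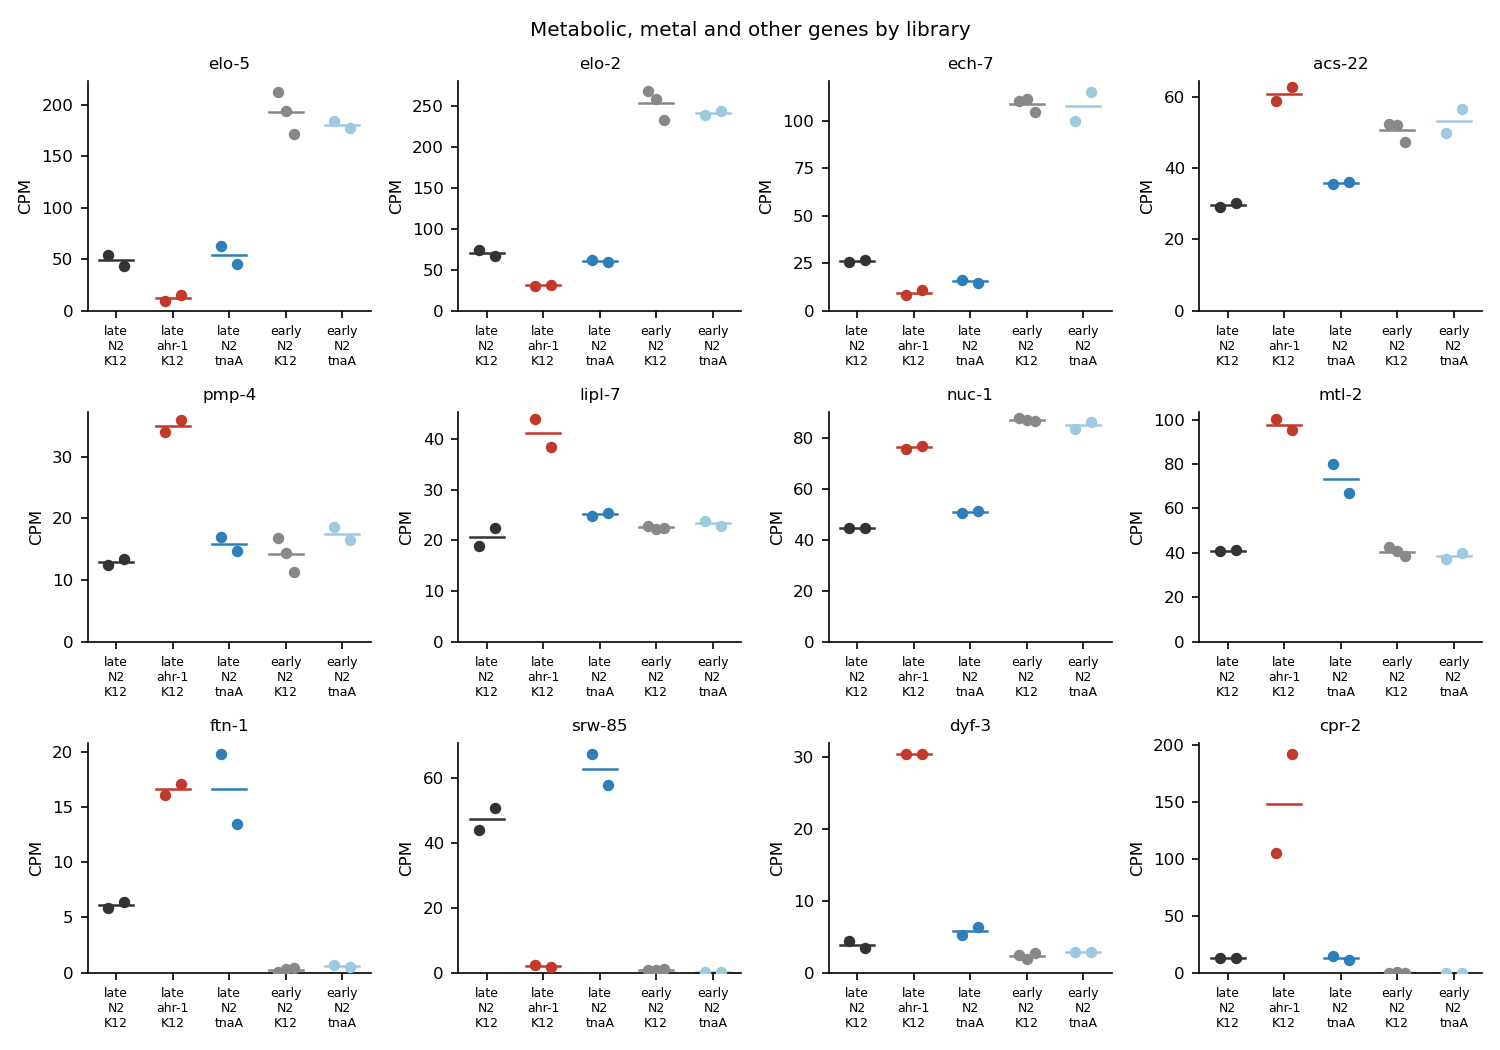
CPM in each of the 11 libraries (points, linear axes from 0) with group means (lines) for 12 genes of lipid metabolism, metals and other functions. The ahr-1 libraries are the lowest of all for elo-5, elo-2 and ech-7, the highest for acs-22, pmp-4, lipl-7, mtl-2, dyf-3 and cpr-2, and overlap with late N2 on tnaA for ftn-1.

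Defence genes moved both ways. Of 58 antimicrobial peptide genes 11 rose and 2 fell (nlp-24 and fipr-21), with a median of 0.32. spp-1, a saposin-like peptide gene, had 5.78 and 4.24 CPM in N2 and 13.5 and 11.8 in ahr-1 (1.33 ± 0.16). cnc-2, a caenacin gene of the epidermis, had 10.99 and 12.4 against 23.7 and 24.0 (1.03 ± 0.12). Late tnaA worms had 15.6 and 12.7 CPM for spp-1, overlapping with the mutants, and 9.73 and 9.38 for cnc-2. The rises numbered 4 without N2 replicate 1, 5 without ahr-1 replicate 1 and 7 with DESeq2. Among 12 lysozyme genes 2 rose and 2 fell. ilys-3, an invertebrate-type lysozyme gene, had 9 and 3 reads in N2 and 120 and 65 in ahr-1, or 0.515 and 0.182 against 10.03 and 4.80 CPM (4.36 ± 0.54, adjusted p = 5.60e-04), with 4.01 and 4.95 CPM in late tnaA worms and no read in early ones. ilys-2 rose by 1.88 ± 0.45, whereas lys-1 went from 54.3 and 57.1 to 18.6 and 35.8 CPM (-1.02 ± 0.20) and lys-4 fell by 0.64 ± 0.19. The lysozyme rises numbered 0 and the falls 3 among genes of at least 5 mean CPM. With no filter on low counts the falls numbered 5, and they were also more without ahr-1 replicate 3. Of 129 C-type lectin genes, many of which share sequence, 16 rose (12.4%, against 12.3% of all genes) and 6 fell (4.65%), and the rises numbered 4 to 9 without each of the 4 libraries in turn. Of 14 PMK-1 pathway and infection genes, nsy-1 and tir-1 rose and vhp-1 fell, but the call of tir-1 was lost in 8 alternatives, DESeq2 and RLE size factors among them, and that of vhp-1 in 5.

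Genes of detoxification moved both ways. Of 65 cytochrome P450 genes, the class best known as targets of the vertebrate receptor, 7 rose (10.8%) and 8 fell (12.3%), near the 12.3% and 12.2% of all genes. cyp-34A9 went from 7.21 and 12.1 to 36.5 and 40.6 CPM (2.00 ± 0.22) and cyp-37B1 from 2.98 and 1.88 to 10.3 and 12.6 (2.23 ± 0.29), while cyp-13A10 (-1.04 ± 0.15) fell. Without N2 replicate 1 the rises numbered 4. Of 59 genes for UDP-glucuronosyltransferases, which attach sugars to foreign molecules, 8 rose (13.6%) and 7 fell (11.9%). ugt-1 (1.83 and 2.24 against 8.94 and 8.05 CPM, 2.06 ± 0.24) and ugt-17 (12.99 and 11.6 against 27.2 and 31.1 CPM, 1.25 ± 0.11) rose and ugt-44 fell (11.5 and 10.1 against 2.67 and 4.43 CPM, -1.58 ± 0.20). Rises and falls numbered 3 each without N2 replicate 1, and falls 3 with DESeq2 and 4 without ahr-1 replicate 3. Glutathione S-transferase genes had 6 falls of 41 (14.6%, near the 12.2% of all genes), gst-10 among them (-1.22 ± 0.33), and 1 rise (gsto-3, 2.44%). The falls numbered 4 with DESeq2, with the replicate block or with the 4 libraries alone, and were fewer without each library in turn. Of 50 ABC transporter genes 7 rose and 13 fell, among them pgp-1 (39.8 and 37.9 against 62.5 and 67.2 CPM, 0.74 ± 0.10) and pgp-8 (35.3 and 31.5 against 17.0 and 17.3 CPM, -0.96 ± 0.11). The falls numbered 7 without N2 replicate 3 and 8 without N2 replicate 1 or ahr-1 replicate 1, and the rises 4 without each library in turn and with DESeq2.

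The translation machinery was lower by a small amount across many genes. Cytosolic ribosomal protein genes summed to 75910 and 76160 CPM in N2 and 62040 and 66140 in ahr-1. Of 78 tested, 50 fell and 1 rose, with a median of -0.23. rps-4 had 1578 and 1604 against 1099.7 and 1233 CPM (-0.45 ± 0.06). The rise was rpl-24.2 (0.39 ± 0.06), which codes for a homologue of a ribosome assembly factor, while its relative rpl-24.1 fell by 0.21 ± 0.05. Of 66 mitochondrial ribosomal protein genes 28 fell and none rose (median -0.23), with mrps-34 at 33.2 and 35.5 against 21.4 and 24.1 CPM (-0.59 ± 0.08). Of 57 genes of translation factors and tRNA synthetases 28 fell and none rose (median -0.18), with the methionine tRNA synthetase gene mars-1 at -0.42 ± 0.05. The falls numbered 27, 10 and 15 in these lists without N2 replicate 1. They numbered 32 and 16 in the first pair without N2 replicate 3, and 32 and 11 without ahr-1 replicate 1. Proteasome genes had 5 falls (15.6%, against 12.2% of all genes) and no rise of 32. The falls numbered 9 under RLE size factors, 10 with DESeq2 and 3 with the 4 libraries alone, and went either way without each library in turn.

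Genes of protein folding differed by compartment. Of 14 cytosolic heat shock genes 7 fell and none rose. hsp-110, a co-chaperone gene, had 889 and 964 CPM in N2 and 592 and 595 in ahr-1 (-0.64 ± 0.06, adjusted p = 5.09e-05), and hsp-70, a heat-induced chaperone gene, 142 and 169 against 91.3 and 82.0 (-0.84 ± 0.11). hsp-16.41, one of several near-identical small heat shock genes, had 121 and 132 against 66.7 and 47.4 CPM (-1.16 ± 0.13). Late tnaA worms were at 843 and 926, 169 and 176, and 139 and 159 CPM for these, so the mutants were the lowest late libraries. In mitochondria 6 of 13 chaperone and stress genes fell and none rose, among them hsp-60 (298 and 255 against 164 and 205 CPM, -0.58 ± 0.10) and hsp-6 (-0.45 ± 0.06). Here late tnaA worms overlapped with the mutants, at 194 and 167 CPM for hsp-60. The mitochondrial list summed to 2113 and 2036 CPM in late N2 on K12, 1569 and 1705 in ahr-1 and 1748 and 1667 in late tnaA worms. In the endoplasmic reticulum 9 of 19 genes of the unfolded protein response rose and 4 fell. xbp-1, its transcription factor gene, had 468 and 517 against 723 and 654 CPM (0.48 ± 0.06), with pdi-6 (0.39 ± 0.05) and the calreticulin gene crt-1 (0.34 ± 0.05) also up, while hsp-4, the chaperone gene that xbp-1 is known to induce, fell (-0.24 ± 0.05), as did cup-2, sec-61 and sel-11. The rises there numbered 3 without N2 replicate 1 and 5 without N2 replicate 3 or ahr-1 replicate 1, and the falls 1 without N2 replicate 1 and 2 without N2 replicate 3.

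Of 33 nuclear genes of the respiratory chain and ATP synthase 7 fell and 3 rose. sdha-2, one of a pair of genes for the flavoprotein of complex II, had 132 and 126 CPM in N2 and 64.9 and 77.6 in ahr-1 (-0.85 ± 0.07), with 91.8 and 85.6 in late tnaA worms, while the other copy sdha-1 was not called (0.15 ± 0.06). asb-1, a germline form of an ATP synthase subunit, fell by 0.38 ± 0.07. The rises were ucr-2.1, cco-1 and the cytochrome c gene cyc-2.2 already given with the sperm genes. The falls numbered 4 without N2 replicate 1 or ahr-1 replicate 1 and 3 without N2 replicate 3, and the rises 0 without N2 replicate 1, 1 without ahr-1 replicate 3, 8 among genes of at least 5 mean CPM and 7 by library size only.

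Of 105 cuticle collagen col genes 20 fell and 3 rose (col-118, col-99 and col-111), their median being -0.65 (-0.63 when 1 member without reads in a group is put at its bound). Their sum overlapped between groups, at 1602 and 1932 CPM in N2 and 808.6 and 1602 in ahr-1, against 33380 to 39400 in early worms. col-95 had 109 and 143 against 51.8 and 77.1 CPM (-0.96 ± 0.17), and col-48 7.55 and 8.48 against 1.92 and 3.10 (-1.66 ± 0.33). The falls ran from 9 to 31 without each library in turn (9 without ahr-1 replicate 1, 10 without N2 replicate 3, 12 without N2 replicate 1), and were 45 with no filter on low counts and 9 among genes of at least 5 mean CPM. Of 65 hedgehog-related and patched-related genes, which worms use in the skin, 12 fell and 5 rose, among them grl-4 (7.78 and 7.99 against 1.84 and 3.62 CPM, -1.50 ± 0.22), ptr-4 (-1.24 ± 0.23, a call lost with DESeq2) and ptr-13 (0.89 ± 0.12). The falls numbered 20 with no filter on low counts. The epidermal transcription factor genes elt-3 (17.9 and 16.3 against 11.4 and 9.38 CPM, -0.72 ± 0.15) and nhr-25 (-0.52 ± 0.12) fell, as did 5 others of 17 epidermal genes, while cdh-4 rose. Those falls numbered 2 without N2 replicate 1 and 4 without each of the others. The summed level of the epidermal genes overlapped between groups, at 1847 and 1940 CPM in N2 and 2180 and 1920 in ahr-1.

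Other tissues and families moved less or in small counts. Of 31 neuronal genes 8 fell, among them the synaptic genes unc-10 (-0.56 ± 0.10), rab-3 (-0.71 ± 0.15), syd-1 (-0.89 ± 0.21) and snt-1 (-0.78 ± 0.20), and snb-1 rose by 0.19 ± 0.06. The falls numbered 4 without N2 replicate 1 and 5 without ahr-1 replicate 1. Among 30 FMRFamide-like peptide genes 5 rose (16.7%, against 12.3% of all genes), flp-15 among them (0.62 ± 0.14), and flp-8 fell. The rises numbered 0 without N2 replicate 1 or ahr-1 replicate 1, 3 without ahr-1 replicate 3 and 1 with DESeq2. Among 40 nlp genes 6 rose (15.0%, against 12.3% of all genes) and 3 fell (7.5%), nlp-20 most (9.04 and 9.69 against 2.67 and 3.77 CPM, -1.53 ± 0.17). The rises were fewer without N2 replicate 1 or ahr-1 replicate 1. Of 25 intestine genes 5 rose (ftn-1, mtl-2, gtl-1, elt-7 and asp-1) and 2 fell (pept-1 and cpr-5). The rises numbered 3 without N2 replicate 1, and the falls 4 under RLE size factors, 5 with no filter on low counts, 3 with DESeq2, and 1 with the replicate block or without N2 replicate 1, N2 replicate 3 or ahr-1 replicate 1. pept-1, the peptide transporter gene, fell (26.4 and 22.8 against 12.2 and 16.1 CPM, -0.79 ± 0.19), a call lost without N2 replicate 1 or ahr-1 replicate 1. In muscle 6 genes rose and unc-52 (-0.64 ± 0.09) and deb-1 (-0.46 ± 0.09) fell, of 25. The rises there numbered 2 or 3 without N2 replicate 1, N2 replicate 3 or ahr-1 replicate 3, 3 with DESeq2 or the 4 libraries alone, and 10 among genes of at least 5 mean CPM.

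Of 337 genes for F-box and MATH-BTB proteins, which select targets for ubiquitin and include many close copies, 47 rose (13.9%) and 10 fell (2.97%), the rises near the 12.3% of all genes. Among them fbxb-18 rose (3.49 and 4.66 against 12.95 and 9.16 CPM, 1.44 ± 0.23) and fbxa-192 fell (14.2 and 13.4 against 4.93 and 2.96 CPM, -1.82 ± 0.22). The rises ran down to 11 without N2 replicate 1, 19 without ahr-1 replicate 1 and 28 without N2 replicate 3, and were 22 with DESeq2. Transthyretin-like genes had 14 rises and 1 fall (ttr-31) of 48 (median 0.29), with ttr-51 at 643 and 629 against 1006 and 871 CPM (0.56 ± 0.07), and 8 rises without N2 replicate 1. nuc-1, the lysosomal DNase II gene that digests DNA of dead cells and food, was at 44.9 CPM in both N2 libraries and 76.0 and 76.9 in ahr-1 (0.77 ± 0.06, adjusted p = 6.53e-06), with 83.8 to 88.0 CPM in early worms and 50.6 and 51.5 in late tnaA worms. Of 31 genes in the autophagy list 9 rose, among them lgg-1 (567 and 608 against 786 and 723 CPM, 0.36 ± 0.06), and 4 fell. Of these falls, atgp-1 and atgp-2 are not autophagy genes but were taken in by their name. The list summed to 3570 and 3779 CPM in late N2 on K12 and 4166 and 3964 in ahr-1. Late tnaA worms were above both, at 4214 and 4196 CPM. The rises numbered 2 without N2 replicate 1 and 4 without ahr-1 replicate 1.

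Nuclear hormone receptor genes had 16 rises (8.12%) and 12 falls (6.09%) of 197. The rises numbered 1 without N2 replicate 1, 8 without N2 replicate 3, 6 without ahr-1 replicate 1, 9 without ahr-1 replicate 3 and 3 with DESeq2, and the falls 3 without N2 replicate 1 and 7 without N2 replicate 3. Of the 6 yolk protein genes of the vit family, neither edgeR's test nor DESeq2 called any, though vit-2 and vit-4 had unadjusted p-values of 0.0237 and 0.0348. vit-2 had 4631 and 5855 CPM in N2 and 5929 and 6622 in ahr-1 (0.26 ± 0.10, adjusted p = 0.0796). vit-3, which shares reads with vit-4, had 131 and 230 against 8.11 and 131 CPM, so the mutant libraries lay far apart. With no filter on low counts, or without ahr-1 replicate 3, 3 of them were called lower. vit-2 was called higher with no filter, with library size only, among genes of at least 5 mean CPM, and without N2 replicate 3.

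**Figure D4:**
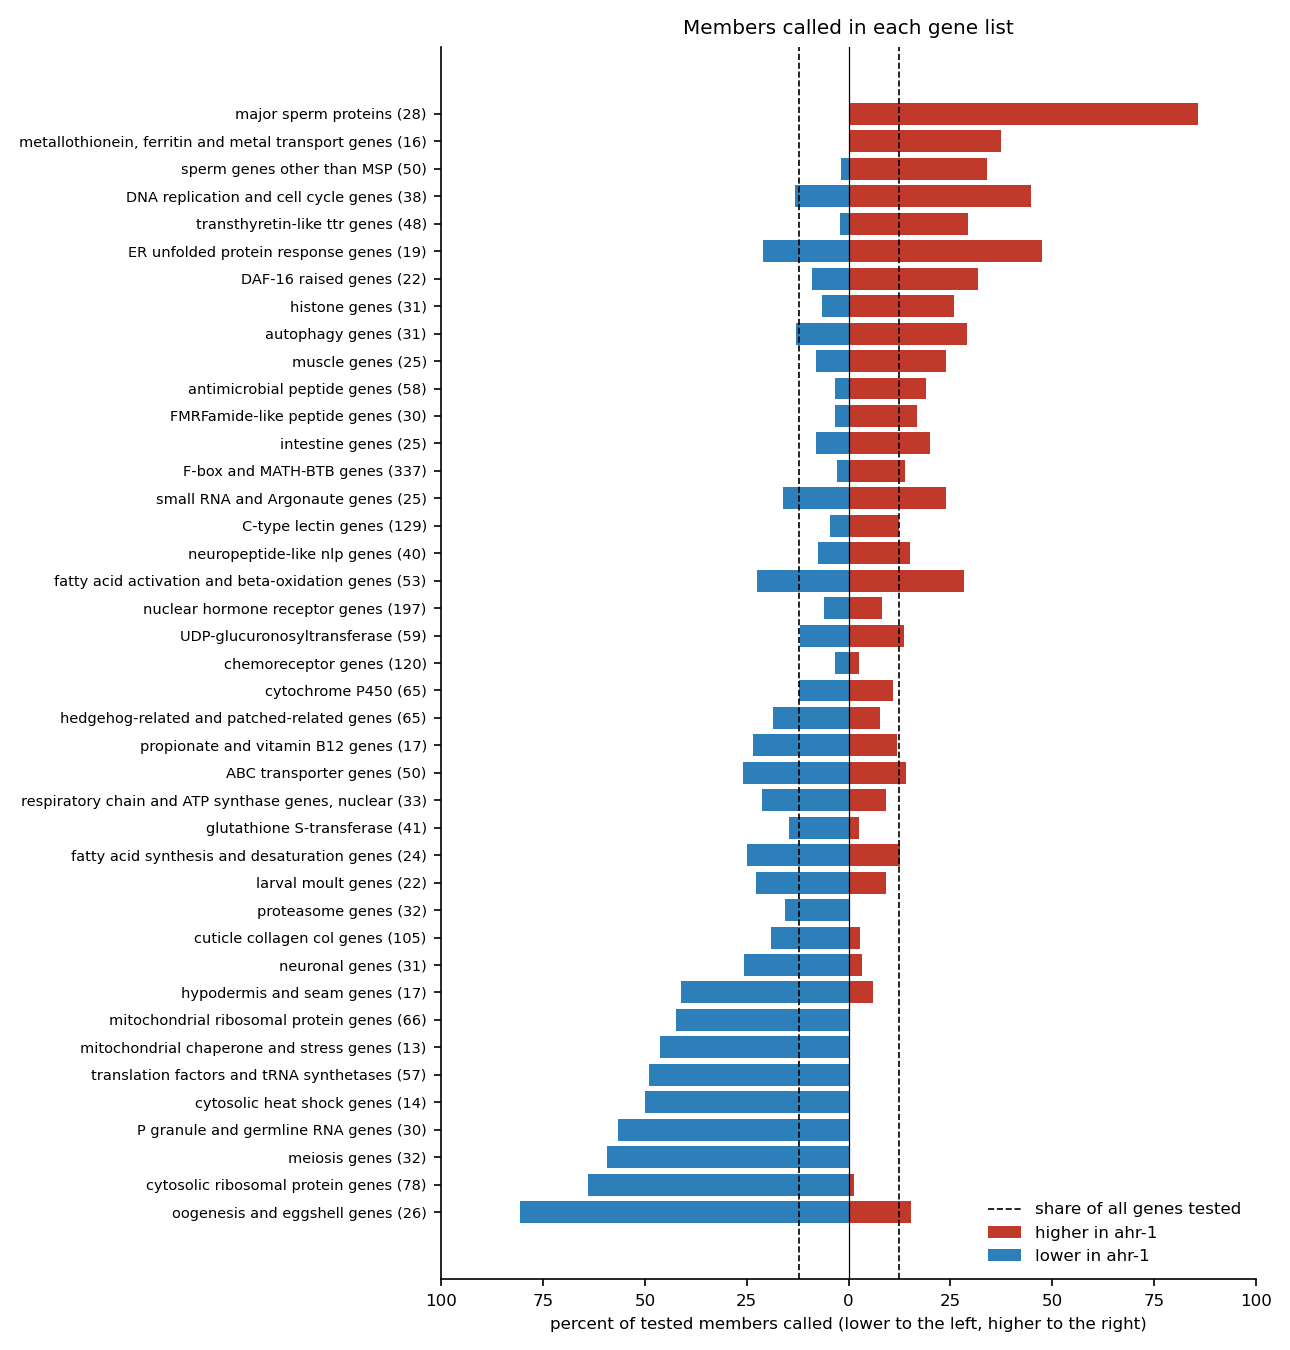
Share of tested members called higher (red, to the right) or lower (blue, to the left) in ahr-1 for the gene lists with at least 12 members tested and 5 called (number tested in brackets); dashed lines give the shares over all genes tested, 12.3% and 12.2%. MSP genes are at the top, and oogenesis, ribosomal protein, meiosis, P granule and heat shock genes at the bottom.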

How the data were processed

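Gene counts of 11 whole-worm RNA-seq libraries were used as the authors deposited them: raw counts per gene, 1 file per library, from reads trimmed with Trim Galore, aligned with STAR and counted with HTSeq 0.6.1p2, per the submitters' processing notes. The labels and file headers state no genome build, annotation or strand setting, and coordinates are therefore left out. Log2 fold changes and adjusted p-values in the authors' deposited table come from DESeq2, per the submitters' processing notes. Its 8 per-sample normalised columns, over 2 such tables, were not used.

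The 2 closing lines of each count file (reads outside genes and ambiguous reads) stayed out of library sizes and tests. Genes were filtered with filterByExpr (minimum count 10), scaled with TMM and fitted over all 11 libraries with a mean per group (6 residual degrees of freedom), using edgeR 4.0.16 in R 4.3.3. Late ahr-1 was compared with late N2 on K12 by the two-sided quasi-likelihood F test with Benjamini-Hochberg adjustment over all genes tested. Labels call the replicates biological; p-values measure the spread between these libraries. Counting intervals (exact, 95%) and bounds (3 counts over a group) cover counting error only. Late N2 on K12 is also the reference of the comparison of diets, so values of tnaA worms are given side by side only.

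The text names genes from the 15 largest rises and falls (no overlap between groups, the higher one averaging 5 CPM or more), up to 4 called members with the smallest p in each of 59 gene lists (46 entries were not found in the files), and ahr-1, aha-1, vitellogenin and soluble guanylate cyclase genes. Members and lists were chosen with earlier results of these data known. Any other gene named (the germline sex genes, the cilium genes beside dyf-3, bcat-1, and list members beyond the first 4) was chosen after its values were seen. Alternatives were RLE size factors, library size only, no filter, at least 5 mean CPM, DESeq2 1.42.0, fewer libraries in the fit, a replicate block and leaving out each compared library. Sequences and promoter motifs were not analysed here.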

Additional observations from a re-analysis of the deposited data

Results flagged for a closer look

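Reads outside annotated genes, which enter none of the comparisons, made up 13.76% of late ahr-1 replicate 1 and 11.6% of late ahr-1 replicate 3, above the 8.56% and 8.27% of late N2 on K12. Late N2 on tnaA had 9.26% and 14.8%, so 1 N2 library lay above both mutants. What these reads are was not analysed here.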

How the results depend on the processing

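Of 208 named genes called, 141 kept the call in every alternative that could be fitted, and none reversed. Among named genes that were not called the sign changed for vit-5 (0.0103 with genes of at least 5 mean CPM, -0.16 to 0.12 without 1 library), vit-6 (-0.0580 to 0.15 without 1 library), gcy-34 (-0.37 to 0.38) and gcy-35 (-0.14 to 0.33). DESeq2 called 1105 genes higher, and 293 higher by at least 2-fold. With genes of at least 5 mean CPM alone, 96 genes were higher and 79 lower by at least 2-fold, and with no filter 251 were lower by at least 2-fold. Leaving out 1 of the 4 libraries gave 670 to 1317 higher and 740 to 1494 lower calls, 118 to 302 and 96 to 208 of at least 2-fold; the lone library left in a group is then assumed to vary like the other groups. Of the 3695 calls, 1376 remained without N2 replicate 1, 2199 without N2 replicate 3, 1870 without ahr-1 replicate 1 and 2480 without ahr-1 replicate 3. The cause was not tested. With the replicate number as a block, 1469 genes were higher and 1521 lower, 278 and 130 of them by at least 2-fold; MSP rises numbered 15 and those of other sperm genes 11. Same-numbered libraries did not deviate together (correlation 0.00750 over 9401 genes). With replicates 1 and 3 alone, this cannot show whether same-numbered samples shared a culture or preparation. Over all gene lists and alternatives, 1197 counts stayed within 1.5 times and 337 did not. Leaving out the 2 early libraries with the most sperm reads, chosen after seeing the data, gave 2030 higher and 1883 lower calls and kept all 208 named ones. Depth limits genes of few reads: ahr-1 itself had at most 56 reads in any of the 4 libraries.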

Other observations

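The genes listed for the early embryo did not fall with the oocyte genes. Of 15 tested, 4 rose (elt-7, tbx-38, nhr-2 and ztf-11) and none fell, and the rises numbered 1 without N2 replicate 1 and 2 without ahr-1 replicate 1. Of these, nhr-2 rose by 0.70 ± 0.10 and ztf-11 by 0.50 ± 0.13 on the log2 scale. The zygotic genes med-1 (0.114 and 0 CPM in N2, 0 in both ahr-1 libraries) and end-1 (0.401 and 0.303 against 0.418 and 0.222 CPM) were near 0 in both groups.

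Of 12 genes listed for the low-oxygen factor HIF-1, ftn-1 and cah-4 rose (16.7%, against 12.3% of all genes) and cysl-1 fell (8.33%, against 12.2%). The list does not separate genes that HIF-1 raises from those it lowers, so these counts give no direction for HIF-1 activity. Of 30 insulin-like peptide genes, ins-27 and ins-22 rose and none fell, and DESeq2 called neither direction. Of 16 genes of coelomocytes, gonadal sheath and spermatheca, lim-7 and inx-14 fell (12.5%, near the 12.2% of all genes) and none rose. The call of lim-7 was lost in 4 alternatives and that of inx-14 in 2.

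The remaining gene lists gave small counts. Of 22 genes that the longevity factor DAF-16 is known to raise, 7 rose (31.8%, against 12.3% of all genes). The falls were 2 (9.09%, against 12.2%). The rises included spp-1, mtl-2 and mtl-1 given above, and the falls hsp-16.2 (-0.97 ± 0.15). A second list, of 13 genes given as lowered by DAF-16, had 1 rise, mtl-1, which stands in the list of raised genes as well. Of 23 oxidative stress genes ctl-2 rose and gst-10 and msra-1 fell. Of 22 larval moult genes 2 rose and 5 fell, of 20 cell death genes 3 rose and none fell, and of 19 further cuticle collagen genes rol-8 and dpy-10 fell. The larval moult falls numbered 10 with the late libraries alone. The falls of these cuticle collagen genes numbered 12 with no filter on low counts, 1 with DESeq2 or without ahr-1 replicate 3, and 0 without any 1 of the other compared libraries.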
